A study of Homo sapiens with 24 samples.

Results

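The response of TMD8 cells to inhibitors of histone deacetylases (HDACi), namely ITF-A and ITF-B, was set against that of DoHH2 cells, with both compounds pooled. TMD8 is an established line of the activated B-cell (ABC) type of diffuse large B-cell lymphoma (DLBCL) and DoHH2 a line of the germinal center B-cell (GCB) type. TMD8 and DoHH2 cells were exposed for 8 h to ITF-A (100 nM), to ITF-B (200 nM) or to DMSO alone, in 3 independent experiments, and each compound had DMSO arrays of its own. All 24 arrays entered: 6 treated and 6 DMSO arrays of TMD8 cells, and 6 treated and 6 DMSO arrays of DoHH2 cells, in 8 groups of 3. Both compounds are hydroxamic acids, and their doses differ, so that the pooled change is the mean over both. Each type of DLBCL is represented by a single line, so that the type and the line cannot be told apart.

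For each probe of the Illumina HumanHT-12 v4 array, the quantity of interest was the mean change in TMD8 cells (treated minus DMSO) minus the mean change in DoHH2 cells. It is called the difference of changes below and is on the log2 scale, where 1 unit is a factor of 2. A positive value means that the gene rose more, or fell less, in TMD8 cells. The difference was read together with the DMSO level of the gene in each line, in order to tell genes that responded in 1 line from genes that only 1 line expressed. A gene was called present in a line where its mean over the 6 DMSO arrays of that line was above 6.32, a level that 12 of 455 probes for olfactory receptors exceeded, genes that B cells are not known to use. This level was the same in TMD8 and in DoHH2 cells.

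HDACi block the enzymes that take acetyl groups off histones and many other proteins. Acetylated histones mark open chromatin, and yet these compounds lower many highly transcribed genes of a cell's own type as well as raising silent ones. ABC lymphomas are known for chronic B-cell receptor and MYD88 signaling, which keeps the transcription factor NF-κB and an autocrine interferon response switched on. GCB lymphomas lean on the germinal center program instead.

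The labelled lines were checked against markers in DMSO. Of 9 B-cell markers read, 9 were present in TMD8 cells and 8 in DoHH2 cells. Of 7 genes of activated B-cell type, 6 were higher in TMD8 cells and 0 in DoHH2 cells. The 7 genes of germinal center type were divided, 3 higher in TMD8 cells and 3 in DoHH2 cells. STAP1, MME and GCSAM were higher in DoHH2 cells. Their TMD8 minus DoHH2 differences in a linear model with a chip term were -2.30, -2.15 and -2.01. LMO2, SERPINA9 and MYBL1 were higher in TMD8 cells, by 3.06, 0.595 and 0.28 in the same model. LMO2 averaged 9.62 in TMD8 cells and 6.56 in DoHH2 cells. BCL6, the germinal center repressor and not among the 7, averaged 9.16 in TMD8 cells and 5.84 in DoHH2 cells, below the presence level. The germinal center markers as a set therefore did not separate the lines in the direction of their types. Arrays of 1 group correlated at r = 0.9934 to 0.9961. RNA was pooled over each culture, so that fewer cells expressing a gene and less RNA per cell cannot be told apart.

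Of 20046 genes, each read at its brightest probe, 6160 (30.7%) differed in their change between the lines at an adjusted p under 0.05 (limma, Benjamini-Hochberg over 47231 probes). The difference of changes was higher in TMD8 cells for 3184 genes (15.9%) and lower for 2976 (14.8%). Most differences were small: the median size among the called genes was 0.40, 3960 were under 0.5, and the smallest called was 0.17, with a median standard error of 0.0749. A difference of at least 1 was reached by 565 genes, 258 higher and 307 lower in TMD8 cells, and 75 reached 2. The ITF-A set and the ITF-B set of arrays, which have no array in common, gave the same direction for all 565, which the choice of genes by the mean of both sets largely fixes. Of the called genes, 1498 rose in both lines and 1197 fell in both, so that they differed in extent only. Another 2726 were called in 1 line only: 735 rose and 708 fell in TMD8 cells alone, and 661 rose and 622 fell in DoHH2 cells alone. The direction was opposite for 647 genes, of which 339 fell in TMD8 cells and rose in DoHH2 cells and 308 did the reverse. Among differences of at least 1, opposite directions made up 174 of 565.

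**Figure D1:**
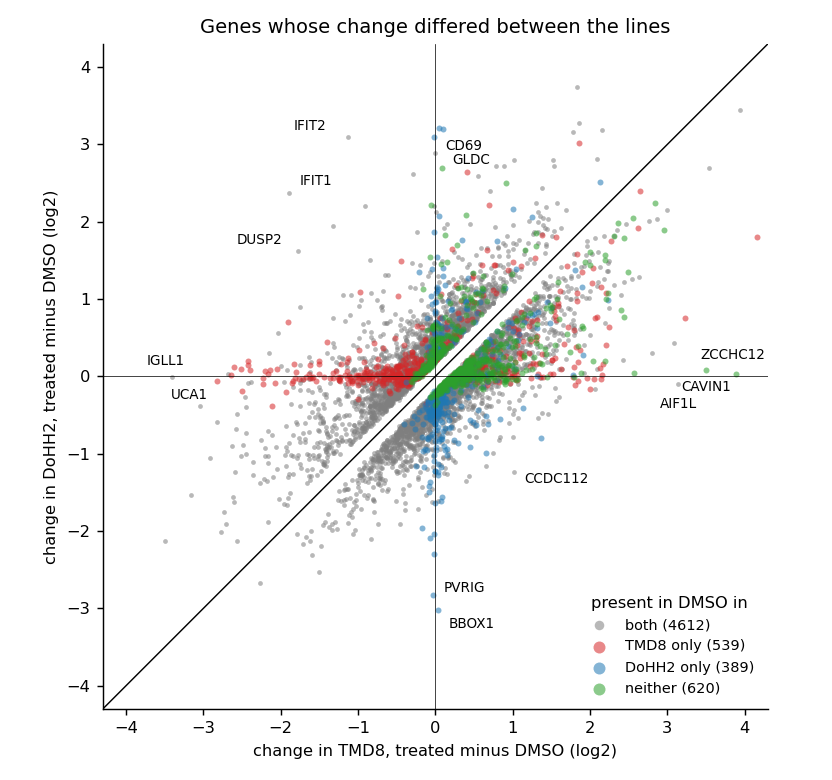
Mean change in TMD8 cells (x axis, treated minus DMSO, log2) against the mean change in DoHH2 cells (y axis, log2) for the 6160 genes called for the difference, 1 point per gene. Colours give presence in DMSO, and the diagonal marks equal change. The genes present in TMD8 cells only spread along the horizontal axis to the left, and those present in DoHH2 cells only spread down the vertical axis.

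Presence in DMSO divided the genes unevenly. Both lines expressed 9370 genes, and 4612 of these (49.2%) were called for the difference. TMD8 cells alone expressed 932, of which 539 (57.8%) were called, and DoHH2 cells alone expressed 816, of which 389 (47.7%) were called. Of 8928 genes present in neither line, 620 (6.94%) were called. A difference of at least 1 was found in 350 genes present in both lines (3.74% of them), in 116 present in TMD8 cells only (12.4%), in 58 present in DoHH2 cells only (7.11%) and in 41 present in neither. At a presence level of 7, 243 of the 565 were present in both lines, so that their share depends on the level chosen. DMSO arrays enter both the presence call and the change, so that these shares are a description. Of the called genes, 638 lay within 0.1 of the presence level in at least 1 line, and their class is the least certain.

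Of the 116 genes with a difference of at least 1 present in TMD8 cells only, 69 fell in TMD8 cells, 43 rose more in TMD8 cells and 4 rose more in DoHH2 cells, where they had been absent. Of the 58 present in DoHH2 cells only, 36 fell in DoHH2 cells, 18 rose more there and 4 rose more in TMD8 cells. Of the 69, 48 were not called in DoHH2 cells, 18 rose there and 3 fell there too. Of the 36, 21 were not called in TMD8 cells, 13 rose there and 2 fell there too. The fall reached the presence level for 7 of the 69 and 5 of the 36, so that most of these transcripts stayed above it after treatment.

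**Figure D2:**
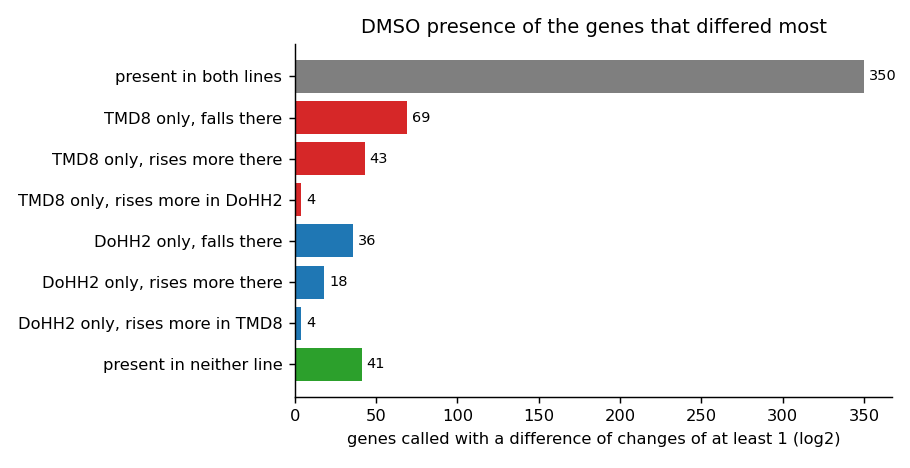
Number of genes with a difference of changes of at least 1 (x axis), by their presence in DMSO and by where they moved (bars, 565 genes in all). The longest bar, 350 genes, is of genes present in both lines, and the falls in the only line that expressed the gene make up 69 in TMD8 cells and 36 in DoHH2 cells.

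The largest differences were of interferon-induced genes, which encode proteins that block viral RNA and protein synthesis. IFIT1 read 6.72, 6.96 and 7.11 (lowest, median and highest of 6 arrays) in treated TMD8 cells and 8.69, 8.85 and 8.99 in DMSO TMD8 cells, against 10.51, 10.62 and 10.78 in treated DoHH2 cells and 8.04, 8.22 and 8.54 in DMSO DoHH2 cells. No 2 of these 4 sets of arrays overlapped. The lines began close to each other and moved apart in opposite directions. The changes were -1.90 and 2.38, a difference of -4.27 ± 0.09 (SE, 6 treated and 6 DMSO arrays per line, adjusted p = 3.55e-31, limma). IFIT2, its neighbour in the same gene cluster, read 6.65 to 6.91 (median 6.85) in treated TMD8 cells and 7.84 to 8.04 (7.96) in DMSO TMD8 cells, against 10.28 to 10.52 (10.47) in treated DoHH2 cells and 7.13 to 7.47 (7.38) in DMSO DoHH2 cells. Its changes were -1.13 and 3.09, a difference of -4.23 ± 0.08 (adjusted p = 2.69e-33). Genes named by size were required to have TMD8 pair changes that did not overlap the DoHH2 pair changes, so that lack of overlap in these genes is no result.

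Of 44 interferon-stimulated genes read, 37 were lower in TMD8 cells for the difference and 0 were higher, beside 14.8% and 15.9% of all genes. In either direction 84.1% of the list were called, beside 49.2% of the genes present in both lines. The list's median difference was -0.98, against 0.001 over all genes. Its median change was -1.11 in TMD8 cells and -0.04 in DoHH2 cells. Both lines expressed 38 of the 44, so that the list's difference is one of response and not of presence for most members. Opposite directions were found in 10 members: the RNA-binding IFIT1, IFIT2 and IFIT3, the ubiquitin-like modifier ISG15, the membrane protein IFITM1, the RNA sensors OAS1 and OAS3, the transcription factor IRF7, and SAMD9 and GBP2. All 10 fell in TMD8 cells and rose in DoHH2 cells. ISG15 changed by -1.75 in TMD8 cells and 0.90 in DoHH2 cells, and IFIT3 by -1.10 and 0.79. Other members fell in both lines and further in TMD8 cells, such as MX1, a GTPase that blocks influenza viruses (-2.82 and -0.60), and OAS2 (-2.74 and -1.76). HERC5, the ligase that attaches ISG15, was present in neither line and rose by 0.39 in TMD8 cells and 2.08 in DoHH2 cells. IRF1, LY6E and IFITM2 were among the 7 members that did not pass, with differences of -0.08, -0.06 and -0.22.

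The start regions of 3 of these genes are shown because they carry the letters that the interferon-activated factors bind. The sequences are from RefSeq (GRCh38.p14), 250 bases before to 50 after the start of the gene, on the gene's strand. Capitals mark the interferon response core AAANNGAAA on either strand and, in ISG15 and NFKB1, the NF-κB site GGNNTTNCC. ISG15 and IFIT3 were chosen after their values had been seen. NFKB1, which encodes an NF-κB subunit, is shown for comparison because it fell in both lines.
IFIT1 (chr10:89392373-89392672, plus strand): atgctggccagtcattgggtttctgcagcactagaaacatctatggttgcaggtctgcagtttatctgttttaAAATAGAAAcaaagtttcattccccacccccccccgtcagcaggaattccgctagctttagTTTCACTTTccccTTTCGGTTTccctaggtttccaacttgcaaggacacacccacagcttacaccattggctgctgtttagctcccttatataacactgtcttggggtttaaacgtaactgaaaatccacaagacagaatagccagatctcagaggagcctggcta
IFIT3 (chr10:89327747-89328046, plus strand): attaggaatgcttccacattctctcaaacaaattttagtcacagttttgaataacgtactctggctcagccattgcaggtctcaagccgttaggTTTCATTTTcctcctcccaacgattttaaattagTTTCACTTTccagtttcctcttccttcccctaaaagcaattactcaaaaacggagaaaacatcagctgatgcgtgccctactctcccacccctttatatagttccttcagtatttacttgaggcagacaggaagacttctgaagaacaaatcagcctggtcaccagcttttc
ISG15 (chr1:1013247-1013546, plus strand): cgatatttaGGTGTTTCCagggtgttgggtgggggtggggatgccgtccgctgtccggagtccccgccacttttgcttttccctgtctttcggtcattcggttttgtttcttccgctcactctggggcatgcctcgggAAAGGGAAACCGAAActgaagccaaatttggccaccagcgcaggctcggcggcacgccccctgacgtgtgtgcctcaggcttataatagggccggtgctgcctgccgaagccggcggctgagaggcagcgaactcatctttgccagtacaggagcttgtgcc
NFKB1 (chr4:102501109-102501408, plus strand): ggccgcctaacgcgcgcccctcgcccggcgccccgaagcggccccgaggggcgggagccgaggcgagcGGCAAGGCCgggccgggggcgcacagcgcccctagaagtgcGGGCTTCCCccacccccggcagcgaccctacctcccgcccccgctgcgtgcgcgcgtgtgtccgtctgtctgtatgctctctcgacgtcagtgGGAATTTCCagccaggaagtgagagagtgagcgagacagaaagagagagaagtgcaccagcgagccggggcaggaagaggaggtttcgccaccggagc
IFIT1 holds 3 interferon cores, at positions -177, -116 and -103 from the start, and IFIT3 holds 2. ISG15 holds 2 that overlap, and NFKB1 holds 0 of them and 3 NF-κB sites. MX1, which also fell in both lines, holds 1 core, at position 12, so that NFKB1 does not stand for all genes that fell in both. The NF-κB target genes CD83 and TNF hold 0 interferon cores and 0 NF-κB sites in this window. The core was found in 26 of the 34 interferon-stimulated genes whose start region was in the table (76.5%), in 5 of 24 NF-κB target genes (20.8%) and in 1294 of 15034 genes on the array (8.61%). The NF-κB letters were found in 10 of 34 (29.4%), 9 of 24 (37.5%) and 2715 of 15034 (18.1%). A match is a description of the letters in this window and not a binding site.

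DUSP2, DUSP5 and CD83 followed IFIT1 and IFIT2 among opposite changes. DUSP2, a nuclear phosphatase that switches off MAP kinases, read 7.40, 7.67 and 7.74 (lowest, median, highest) in treated TMD8 cells and 9.26, 9.39 and 9.42 in DMSO TMD8 cells, against 9.49, 9.69 and 9.83 in treated DoHH2 cells and 7.74, 8.14 and 8.28 in DMSO DoHH2 cells. The level of each line after treatment was close to that of the other line before it. Its difference was -3.39 ± 0.09 (adjusted p = 2.32e-29). DUSP5, the phosphatase of nuclear ERK, changed by -0.91 in TMD8 cells and 2.21 in DoHH2 cells. CD83, a surface protein of activated B cells and an NF-κB target, read 10.02 to 10.20 in treated TMD8 cells and 11.31 to 11.57 in DMSO TMD8 cells, against 11.28 to 11.51 in treated DoHH2 cells and 9.27 to 9.61 in DMSO DoHH2 cells. Its changes of -1.32 and 1.94 gave a difference of -3.26 ± 0.08 (adjusted p = 4.52e-30). JUN and ATF3, which encode stress-induced transcription factors, also moved in opposite directions (-0.61 and 1.32, and -0.23 and 1.86).

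Inhibitors of NF-κB were among the opposite changes as well. NFKBIA, whose product holds NF-κB in the cytoplasm, read 11.11 to 11.33 in treated TMD8 cells and 11.89 to 12.05 in DMSO TMD8 cells, against 12.90 to 12.99 in treated DoHH2 cells and 11.87 to 12.02 in DMSO DoHH2 cells. Its DMSO levels overlapped between the lines, and its treated levels did not. The difference was -1.75 ± 0.07 (adjusted p = 8.69e-24). NFKBIZ, a nuclear cofactor of NF-κB, changed by -0.65 in TMD8 cells and 1.31 in DoHH2 cells, and TNFAIP3, the A20 protein that removes ubiquitin from the pathway, by -1.07 and 0.41. LYN, the first kinase of the B-cell receptor, read 11.78 to 12.03 in treated TMD8 cells and 12.53 to 12.69 in DMSO TMD8 cells, against 11.55 to 11.75 in treated DoHH2 cells and 10.61 to 10.83 in DMSO DoHH2 cells, a difference of -1.59 ± 0.07. LMO2 fell by 1.09 in TMD8 cells and rose by 1.06 in DoHH2 cells, where it began at 6.56, little above the presence level.

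**Figure D3:**
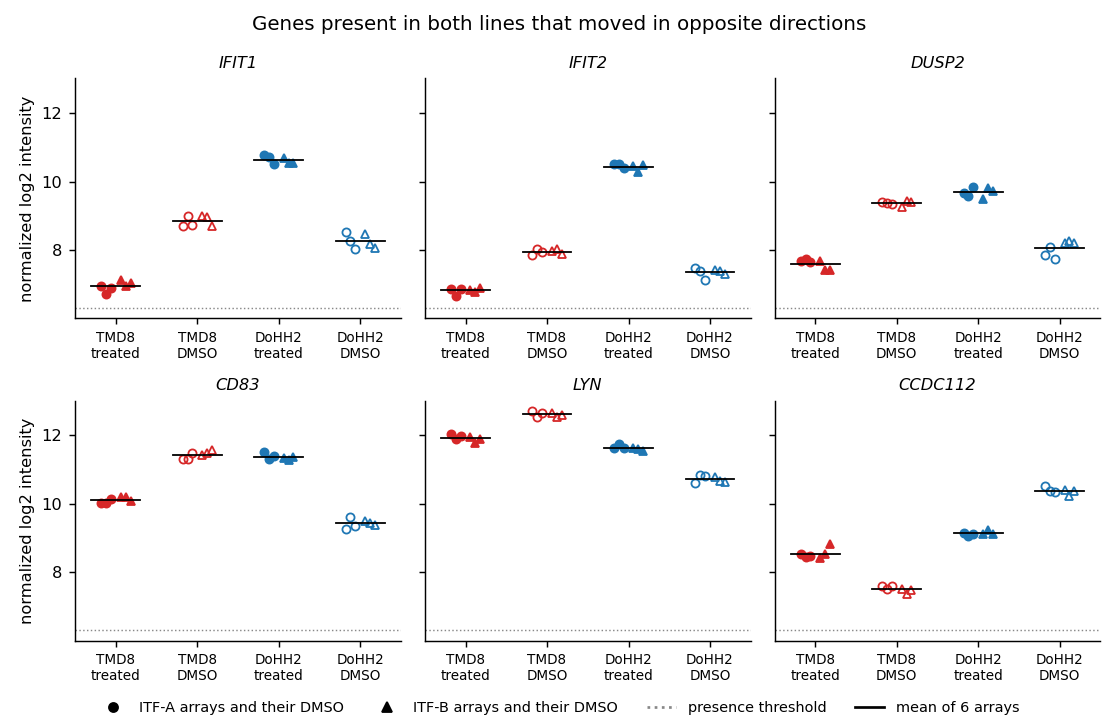
Normalized log2 intensity (y axis) of 6 genes present in both lines that moved in opposite directions, 1 point per array, with treated left of DMSO in each line. Circles are ITF-A arrays and their DMSO, triangles ITF-B arrays and theirs, bars the mean of 6 arrays and the dotted line the presence level of 6.32. IFIT1, IFIT2, DUSP2, CD83 and LYN fell in TMD8 cells and rose in DoHH2 cells, and CCDC112 did the reverse.

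The reverse pattern, up in TMD8 cells and down in DoHH2 cells, was smaller in size. CCDC112, which encodes a protein of centriolar satellites, read 8.41, 8.49 and 8.81 in treated TMD8 cells and 7.37, 7.51 and 7.60 in DMSO TMD8 cells, against 9.07, 9.12 and 9.23 in treated DoHH2 cells and 10.24, 10.38 and 10.53 in DMSO DoHH2 cells. The lines drew nearer to each other, and their arrays still did not overlap. Its difference was 2.26 ± 0.08 (adjusted p = 1.05e-24). SDC1, which encodes the plasma cell antigen CD138, changed by 0.66 in TMD8 cells and -1.16 in DoHH2 cells. CEBPB, a transcription factor of the stress response, changed by 1.56 and -0.31. CXCR4, the receptor that guides B cells within the germinal center, had pair changes of 0.77 to 1.19 in TMD8 cells and of -0.65 to -0.08 in DoHH2 cells (difference 1.49 ± 0.09).

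Some genes that both lines expressed moved in TMD8 cells alone. IGLL1, which encodes part of the surrogate light chain and shares sequence with the lambda light chain genes, read 8.19, 8.40 and 8.51 in treated TMD8 cells and 11.71, 11.76 and 11.88 in DMSO TMD8 cells, against 14.08, 14.09 and 14.26 in treated DoHH2 cells and 13.93, 14.18 and 14.25 in DMSO DoHH2 cells. Treated and DMSO arrays of TMD8 cells were far apart, while those of DoHH2 cells overlapped near the top of the scale, where a change is harder to see. Its difference was -3.40 ± 0.08 (adjusted p = 1.03e-30), and -1.06 as the mean of all its probes. AIF1L, related to an actin-binding protein, did the opposite. It read 9.76 to 9.99 in treated TMD8 cells and 6.64 to 6.84 in DMSO TMD8 cells, against 6.52 to 6.70 in treated DoHH2 cells and 6.58 to 6.91 in DMSO DoHH2 cells (difference 3.24 ± 0.07, adjusted p = 1.33e-30). CDK5R1, the activator of the kinase CDK5, fell by 2.69 at the median TMD8 pair and changed by 0.03 at the median DoHH2 pair. In DMSO it averaged 10.60 in TMD8 cells and 6.81 in DoHH2 cells, where a fall of that size could not show. TLR7, the endosomal receptor for single-stranded RNA, was present at like levels in both lines. TLR7 in DMSO read 8.56 to 8.79 in TMD8 cells and 8.29 to 8.62 in DoHH2 cells, ranges that overlapped. In the linear model with a chip term the DMSO levels still differed by 0.27 (limma, adjusted p = 0.000104). After treatment TLR7 read 6.65 to 6.80 in TMD8 cells, near the presence level, and 8.24 to 8.49 in DoHH2 cells. The difference of changes was -1.89 ± 0.08 (adjusted p = 1.97e-22).

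Others moved in DoHH2 cells alone. CD69, an early activation antigen that retains lymphocytes in tissue, read 7.18, 7.49 and 7.63 in treated TMD8 cells and 7.33, 7.48 and 7.66 in DMSO TMD8 cells, against 12.02, 12.14 and 12.22 in treated DoHH2 cells and 9.08, 9.27 and 9.37 in DMSO DoHH2 cells. Treated and DMSO arrays overlapped in TMD8 cells and were far apart in DoHH2 cells. The difference was -2.90 ± 0.08 (adjusted p = 3.16e-27). CCL5, a chemokine for T cells, behaved alike, with changes of -0.02 in TMD8 cells and 2.21 in DoHH2 cells. ZFP36, which encodes a protein that destabilizes AU-rich mRNAs, had DMSO medians of 10.66 in TMD8 cells and 10.26 in DoHH2 cells and treated medians of 10.67 in TMD8 cells and 12.37 in DoHH2 cells. RRM2, the regulated subunit of ribonucleotide reductase, changed by 0.15 in TMD8 cells and 1.97 in DoHH2 cells, and it stood apart from the other DNA replication genes described below. BCAT1, a branched-chain aminotransferase, read 8.97 to 9.24 in treated TMD8 cells (median 9.06) and up to 9.19 (median 9.04) in DMSO TMD8 cells, against 7.51 to 7.74 in treated DoHH2 cells and 8.98 to 9.27 in DMSO DoHH2 cells. The fall of 1.61 in DoHH2 cells at a shared DMSO level gave a difference of 1.65 ± 0.08 (adjusted p = 1.96e-20). MLKL, the effector of necroptosis, had a median pair change of -0.11 in TMD8 cells and -1.55 in DoHH2 cells. In DMSO it averaged 6.48 in TMD8 cells and 9.01 in DoHH2 cells. TMD8 cells were thus little above the presence level, where a fall of that size could not show.

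Genes that 1 line alone expressed gave differences of like size. UCA1, a long non-coding RNA first described in bladder cancer, read 6.44, 6.51 and 6.65 in treated TMD8 cells and 9.21, 9.36 and 9.47 in DMSO TMD8 cells, against 5.92 to 6.23 in treated DoHH2 cells and 6.04 to 6.16 in DMSO DoHH2 cells. Every DoHH2 array was below the presence level, so that its difference of -2.76 ± 0.07 (adjusted p = 1.36e-28) is the fall in TMD8 cells. SIRPA, the receptor for the signal CD47, read 6.88 to 7.06 in treated TMD8 cells and 9.42 to 9.68 in DMSO TMD8 cells, and at most 5.97 in DoHH2 cells of either treatment. CXCR5, the receptor that draws B cells into follicles, read 8.15 to 8.62 in treated TMD8 cells and 10.28 to 10.46 in DMSO TMD8 cells, and at most 6.27 in treated and 6.17 in DMSO DoHH2 cells. RGS13, a germinal center regulator of chemokine receptors, and CD5, an inhibitory receptor, were likewise present in TMD8 cells only (differences -1.68 ± 0.07 and -1.22 ± 0.08). The inflammatory cytokine gene TNF was present in TMD8 cells only and yet moved in both. It read 8.59 to 8.91 in treated TMD8 cells and 10.52 to 10.78 in DMSO TMD8 cells, against 6.62 to 7.01 in treated DoHH2 cells and 5.98 to 6.25 in DMSO DoHH2 cells, a difference of -2.61 ± 0.09 (adjusted p = 2.05e-25).

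BBOX1, the last enzyme of carnitine synthesis, was the counterpart in DoHH2 cells. It read 5.91 to 6.04 in treated TMD8 cells and 5.85 to 6.02 in DMSO TMD8 cells, against 7.61, 7.69 and 8.13 in treated DoHH2 cells and 10.68, 10.78 and 10.86 in DMSO DoHH2 cells. Its difference of 3.06 ± 0.08 (adjusted p = 1.95e-28) is the fall in DoHH2 cells. PVRIG, an inhibitory receptor of lymphocytes, had medians of 5.93 in treated and 5.95 in DMSO TMD8 cells, and it read 6.34 to 6.62 in treated DoHH2 cells and 9.19 to 9.40 in DMSO DoHH2 cells. S1PR4, a receptor for sphingosine 1-phosphate, was also present in DoHH2 cells only (difference 1.30 ± 0.09). Rises where a gene was already present were outside the naming rule, and the following were chosen after their values had been seen. PMEL, a melanosome protein, averaged 6.10 in treated and 6.05 in DMSO TMD8 cells, against 9.56 in treated and 6.34 in DMSO DoHH2 cells, only just above the presence level. NDRG4 averaged 10.55 in treated and 6.39 in DMSO TMD8 cells, against 8.02 in treated and 6.21 in DMSO DoHH2 cells. The presence class of both genes rests on less than 0.1 of a unit.

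**Figure D4:**
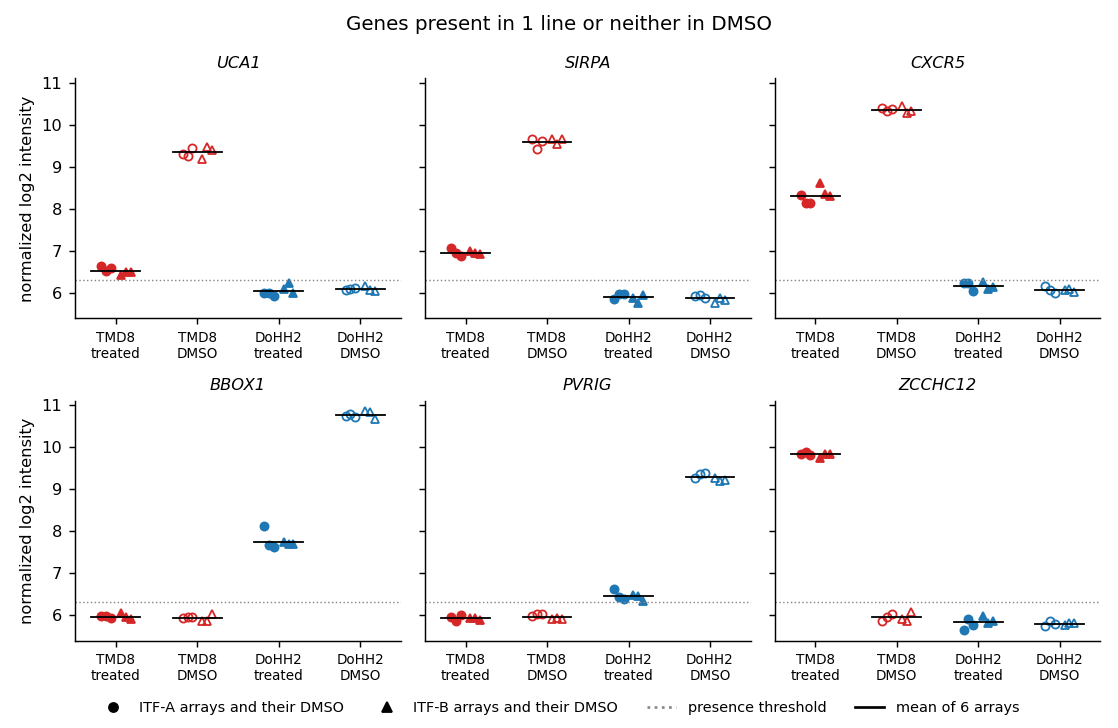
Normalized log2 intensity (y axis) of 6 genes that only 1 line or neither expressed in DMSO, 1 point per array, with treated left of DMSO in each line. Symbols, bars and the dotted presence level of 6.32 are as for the genes that moved in opposite directions. UCA1, SIRPA and CXCR5 fell in TMD8 cells, BBOX1 and PVRIG fell in DoHH2 cells, and ZCCHC12 rose in TMD8 cells only.

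Of the 41 genes with a difference of at least 1 that neither line expressed, 31 rose more in TMD8 cells and 10 more in DoHH2 cells. Rises were called in both lines for 22 of the 41, in TMD8 cells only for 12 and in DoHH2 cells only for 7. All 41 were above the presence level in the treated arrays of the line where they rose more. That all 41 rose above it is largely fixed, since they began at or below 6.32 and the lowest value on the arrays was 5.65. ZCCHC12, a zinc finger gene known from the brain, read 9.75, 9.84 and 9.89 in treated TMD8 cells and 5.86, 5.92 and 6.06 in DMSO TMD8 cells, against 5.65 to 5.97 in treated DoHH2 cells and 5.74 to 5.86 in DMSO DoHH2 cells. It was below the presence level in every array but the 6 of treated TMD8 cells. The difference was 3.86 ± 0.07 (adjusted p = 2.32e-33). CAVIN1, a coat protein of caveolae, rose by 3.51 in TMD8 cells and changed by 0.09 in DoHH2 cells. GLDC, the glycine-cleaving decarboxylase, read 5.87 to 5.99 in treated TMD8 cells and 5.76 to 5.91 in DMSO TMD8 cells, against 8.80 to 9.07 in treated DoHH2 cells and a median of 6.23 in DMSO DoHH2 cells. Its difference was -2.62 ± 0.07. HBA2, an alpha globin gene whose probe may also catch the nearly identical HBA1, rose in both lines, by 0.92 in TMD8 cells and 2.50 in DoHH2 cells.

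Some genes present in 1 line moved in the other as well. HEY1, present in DoHH2 cells only, a Notch target, read 7.31 to 7.77 in treated TMD8 cells and 5.77 to 5.93 in DMSO TMD8 cells, against 8.90 to 9.12 in treated DoHH2 cells and 8.84 to 9.13 in DMSO DoHH2 cells. AKR1C3, an enzyme of steroid metabolism, had median pair changes of 1.37 in TMD8 cells, where it had been absent, and -0.82 in DoHH2 cells. CFAP251, a gene of motile cilia, was the counterpart, with -2.42 in TMD8 cells and 0.23 in DoHH2 cells, where it stayed below the presence level. Over all 565 genes with a difference of at least 1, the gap between the lines was narrower in treated than in DMSO arrays for 339 and wider for 226, and its sign turned for 138. Of the 350 present in both lines, it was narrower for 228 and wider for 122. DMSO arrays enter both the gap and the changes, so that the counts were not tested.

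Genes that moved the same way in both lines differed in extent. TENT5C, a poly(A) polymerase of plasma cells, rose by 3.09 in TMD8 cells, with a DMSO median of 6.34, and by 0.44 in DoHH2 cells, with a DMSO median of 10.06. ID3, an inhibitor of E-protein transcription factors, rose by 0.55 in TMD8 cells and 2.59 in DoHH2 cells. MIR155HG, the host transcript of miR-155, had DMSO medians of 11.28 in TMD8 cells and 11.26 in DoHH2 cells. Its treated medians were 8.24 in TMD8 cells and 10.88 in DoHH2 cells, a difference of -2.65 ± 0.08 (adjusted p = 5.89e-27). COL24A1, a fibrillar collagen, fell in both lines and by more in DoHH2 cells (difference 1.49 ± 0.08).

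Pathway lists were read in the order of the signal, from receptor to target, beside 15.9% higher and 14.8% lower over all genes. These shares count genes present in neither line, which were seldom called. Of the 9370 genes present in both lines, 49.2% were called, 2280 higher and 2332 lower. Of 33 B-cell surface antigens, 23 were lower in TMD8 cells for the difference and 1 higher (median difference -0.54). The lower ones included CD72, FCRL3, FCRL2 and FCRL5, inhibitory and Fc receptor-like proteins, with differences of -2.58, -2.21, -2.13 and -2.00. The exception was CD27, a memory marker, at 1.34, with changes of -0.395 in TMD8 cells and -1.73 in DoHH2 cells. CD27 averaged 6.37 in DMSO TMD8 cells, little above the presence level, and 10.30 in DMSO DoHH2 cells. Of 29 proximal B-cell receptor genes, 13 were lower and 6 higher. LYN and the kinase SYK led, with -1.59 and -1.44. The kinase gene BTK differed by only -0.31, which was not called with either chip or with ITF-A alone, and PRKCB, the protein kinase C that links the receptor to NF-κB, was higher at 0.49. Of 22 Toll-like receptor and MYD88 genes, 13 were lower and 1 was higher (median -0.33). TLR7, TLR10 and the transcription factor IRF5 led with -1.89, -1.68 and -1.13. The adaptor MYD88 stood at -0.84, and the kinase IRAK1 was the exception at 0.47. TLR10 averaged 9.35 in DMSO TMD8 cells and 6.81 in DMSO DoHH2 cells.

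Of 24 NF-κB components, all present in both lines, 17 were lower and 2 higher (median -0.41). The 17 held inhibitors such as NFKBIZ, NFKBIA and TNFAIP3 as well as the subunits NFKB1 (-1.13), REL (-0.88) and RELB (-0.41). The subunit RELA did not pass, at 0.16. MALT1, a protease of the pathway, was higher at 0.71. Of 29 NF-κB target genes, 21 were lower and 4 higher (median -0.78). The lymphotoxin genes LTA and LTB stood at -2.31 and -1.30 and the cytokine IL6 at -1.43. LTA averaged 9.58 in DMSO TMD8 cells and 6.50 in DMSO DoHH2 cells. STAT5A, a transcription factor of cytokine signaling, was higher at 1.26, with changes of -0.17 in TMD8 cells and -1.43 in DoHH2 cells. In DMSO, STAT5A averaged 6.75 in TMD8 cells and 8.89 in DoHH2 cells. IL10, a cytokine with a DMSO mean of 12.47 in TMD8 cells and 12.48 in DoHH2 cells, differed by only -0.22. Of 28 JAK-STAT genes, 13 were lower and 5 higher, and the receptor chains IL10RA, IL21R and IL13RA1 stood at -1.35, -1.22 and -1.18.

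Of 20 cell-of-origin genes of activated B-cell type, 18 were lower in TMD8 cells for the difference and 0 higher (median -0.78). Their median DMSO level was 9.83 in TMD8 cells and 8.27 in DoHH2 cells, and 17 were present in both. IRF4, the transcription factor of plasmablasts, fell by 0.93 in TMD8 cells and rose by 0.67 in DoHH2 cells. Of 18 genes of germinal center type, 5 were higher and 4 lower (median 0.02), BCL6 among the higher at 0.77, a call lost with a smaller background offset (0.13, adjusted p = 0.40). Of 16 BCL2 family genes, 8 were lower and 2 higher. BCL2L11, which encodes the killer protein BIM, had a difference of -1.69, and the survival genes BCL2 and BCL2L1 had -1.10 and -1.05. BCL2L11 averaged 11.10 in DMSO TMD8 cells and 6.41 in DMSO DoHH2 cells. The latter is little above the presence level, where a fall could hardly show. Of 12 metallothioneins and their regulators, 6 were lower and 2 higher. MT1G rose by 1.84 in TMD8 cells and 3.75 in DoHH2 cells.

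Other lists ran the other way or stayed near the share of all genes. Of 28 ribosome biogenesis genes, 16 were higher and 0 lower (median 0.23). Their median change was -0.43 in TMD8 cells and -0.68 in DoHH2 cells. The nucleolar genes NCL and NOP56 changed by -0.39 and -0.19 in TMD8 cells and by -1.09 and -0.91 in DoHH2 cells. Of 31 DNA replication genes, 16 were higher and 4 lower (median 0.24), with GINS2, TYMS and PCNA at 0.99, 0.95 and 0.81 and RRM2 at the other end at -1.81. Of 28 mitosis genes, 6 were higher and 4 lower, and of 17 housekeeping genes, 4 were higher and 3 lower, with medians of -0.03 and 0.01. All were present in both lines, and 35.7% and 41.2% were called, below the 49.2% of all genes present in both. Markers of T and NK cells, which a line should lack, were present in TMD8 cells for 1 of 15 (CD5) and in DoHH2 cells for 0 of 15.

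**Figure D5:**
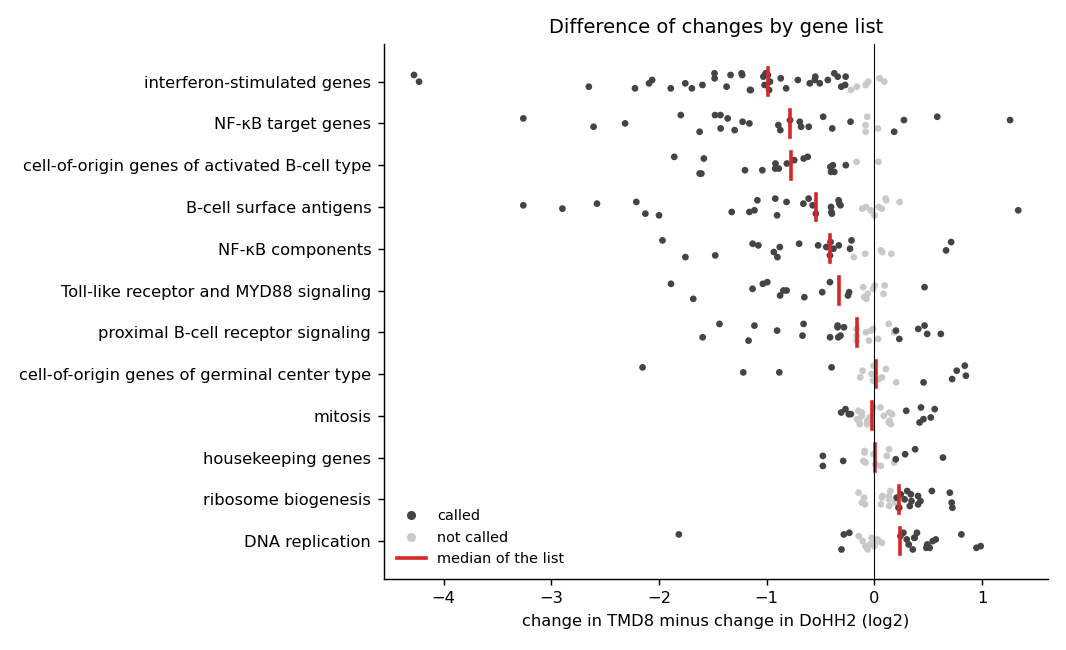
Difference of changes (x axis, TMD8 minus DoHH2, log2) for the members of 12 gene lists (y axis), 1 point per gene, dark where called and light where not. Red bars give the median of each list. The interferon-stimulated genes lie furthest to the left (median -0.98), and the ribosome biogenesis and DNA replication genes lie to the right of 0 (medians 0.23 and 0.24).

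Genes that the study singled out in treated cells were read whatever their value. MYC, the growth regulator, fell by 2.61 in TMD8 cells and 1.63 in DoHH2 cells, and CCND2, which encodes cyclin D2, fell by 2.92 and 1.06. Treated CCND2 read 9.22 to 9.44 in TMD8 cells and 10.54 to 10.71 in DoHH2 cells, whereas in DMSO it read 12.16 to 12.39 in TMD8 cells and 11.61 to 11.78 in DoHH2 cells, so that the order of the lines turned. NFKB1 had medians of 9.45 in treated and 11.64 in DMSO TMD8 cells, against 10.53 in treated and 11.62 in DMSO DoHH2 cells. CDKN1A, which encodes the cell cycle inhibitor p21, rose by 0.87 in TMD8 cells and 1.25 in DoHH2 cells, a difference of -0.39, and CDKN2D, which encodes p19, differed by -0.26, which was not called with either chip or with ITF-A alone. STAT3 RNA rose by 0.26 in TMD8 cells and 0.97 in DoHH2 cells at 8 h. The study's text reports lower total and phosphorylated STAT3 protein in TMD8 cells after a longer exposure, so that measure and time differ. Its figure legend instead describes the immunoblot as an increase of both forms, and the staining of the phosphorylated form as a decrease. The histone gene H2BC21 and the plasma cell receptor gene TNFRSF17 did not pass, at 0.19 (adjusted p = 0.241) and 0.23 (adjusted p = 0.0515). With a replicate block TNFRSF17 was called, at the same difference (adjusted p = 0.028 for the 12 pairs and 0.0375 by line and experiment). They changed by 2.37 and -2.82 in TMD8 cells and by 2.18 and -3.06 in DoHH2 cells.

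Small nuclear, small nucleolar and ribosomal RNAs that were called were mostly higher in TMD8 cells for the difference. Of 321 such genes, a list drawn up after their values had been seen, 150 (46.7%) were higher and 10 (3.12%) lower, with a median difference of 0.16 over the list, and 31 were higher by at least 1. Their mean level was 7.01 to 7.09 in treated TMD8 arrays and 6.73 to 6.79 in DMSO TMD8 arrays, against 6.67 to 6.70 in treated DoHH2 arrays and 6.71 to 6.76 in DMSO DoHH2 arrays. The treated TMD8 arrays thus stood above all others. SNORD46, a guide for methylation of ribosomal RNA, read 10.03 to 10.29 in treated TMD8 cells and 7.88 to 8.29 in DMSO TMD8 cells, against 6.54 to 6.78 in treated DoHH2 cells and 6.80 to 6.89 in DMSO DoHH2 cells (difference 2.23 ± 0.08). RNA18SN5, the 18S ribosomal RNA, rose by 2.80 in TMD8 cells and 0.30 in DoHH2 cells. The part of RNA preparation in these values was not tested. With these probes left out before normalization, 3077 genes were higher and 2892 lower, and 142 of 142 named genes kept their direction and call.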

How the data were processed

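Total RNA of TMD8 and DoHH2 cells was measured on 24 Illumina HumanHT-12 v4 arrays on 2 chips of 12. The intensity values of 47231 probes per array were deposited by the authors (70.3 to 26194.5, array medians 93.2 to 112.1), as was a second table of log2 values (6.36 to 14.77). By the study's methods the authors normalized by quantiles, corrected batches with ComBat without naming them and tested with LIMMA. ComBat was not run here. The tables used here hold no detection p-value, so that presence was set from olfactory receptor probes. The number of arrays limits the precision.

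Intensities were background-corrected (normexp, offset 50), quantile normalized and log2 transformed. A linear model of 8 groups and chip was fitted in limma 3.58.1 (R 4.3.3), with Benjamini-Hochberg adjustment over all probes and a threshold of 0.05. A two-sided exact permutation test of 6 against 6 pair changes was run as well and is not used in the text, since the naming rule fixes its value (0.00216) for genes chosen by size. The pairs come from 3 experiments per line. The p-values and SE of the linear model rest on the spread of the 3 arrays within each group, 1 per experiment. This model has no term for experiment or pair, so that arrays of 1 experiment count as independent. On simulated arrays of the same design (47231 probes), the fit recovered 13, 49, 50 and 50 of 50 probes with a difference of 0.25, 0.5, 1 and 2, drawn from probes above the median signal. Noise was drawn independently for each array, and only these sets of 50 probes were changed, whereas 20.6% of probes were called in the data. The adjusted threshold is stricter in the simulation, so that its recovery of small differences does not describe the data. Figures used Python 3.11.15 and matplotlib 3.10.9. Of the probes, 30113 carry 1 gene symbol in the platform annotation and 17118 none or, for 8 of them, several, and each of 20046 genes was read at its probe with the highest mean. Columns of per-sample values not used numbered 0.

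Genes were named by size of the difference: 3 per class for those present in both lines and changed in 1 line or in opposite directions, 1 per class for those changed the same way, 3 per line for falls of genes present in 1 line, 2 per line for genes present in neither or rising in the other line, up to 2 per direction per list, and the genes the study names for treated cells. All but the last had to be called, have the same sign with each compound and have pair changes that did not overlap between the lines. This gave 145 genes, and 1 (CDKN2C) was not read. The members and lists were chosen with earlier results of these data known. Some items are not reported here.

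Treated and DMSO arrays share experiment numbers, since the study describes 3 independent experiments. Deviations from the group means correlated at 0.0464 on average for equal numbers (-0.0862 to 0.1422 over single pairs, 23615 probes) and at -0.0233 for others. Start regions are from RefSeq (GRCh38.p14), searched on both strands, while the study's annotation was of an older build, and no coordinates were carried over. Alternatives were no background correction, an offset of 16, the deposited log2 values, a filter on dim probes, no chip term, replicate blocks, each chip and each compound alone, array weights, a minimum difference of 1, linear intensities, the mean of all probes of a gene, other presence levels, each array left out and, added after seeing the data, small RNA probes left out.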

Additional observations from a re-analysis of the deposited data

Results flagged for a closer look

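The change differed between the lines by the test of the difference itself for 3184 genes that were higher and 2976 that were lower in TMD8 cells, and 647 of these moved in opposite directions (limma). Among genes that both lines expressed, each of 6 named genes moved one way in all TMD8 pairs and the other way in all DoHH2 pairs. Their choice largely fixes this, since they were the largest among genes called in opposite directions with pair changes that did not overlap. CCDC112, SNORD46 and SNORA6 were higher in TMD8 cells, by 2.26, 2.23 and 1.94. IFIT1, IFIT2 and DUSP2 were lower, by differences of -4.27, -4.23 and -3.39.

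Single pair changes that stood apart from the other 5 of their line were looked for in 290 sets of 6, by Dixon's test, and 25 were found, while chance gives about 1 in 20 sets. At most 1 pair per set could be found this way, and the 25 each concerned a different gene. In TMD8 cells, in the ITF-A pair of experiment 3, ATF3 changed by -0.044 (other pairs -0.34 to -0.24), HLA-DRB1 changed by 0.36 (other pairs -0.10 to 0.06) and KRT19 changed by -0.27 (other pairs -0.64 to -0.52). In TMD8 cells, in the ITF-B pair of experiment 3, BTK changed by -1.83 (other pairs -1.60 to -1.49). In TMD8 cells, in the ITF-B pair of experiment 2, DDIT4 changed by 0.77 (other pairs 0.93 to 1.01) and H2AJ changed by 1.18 (other pairs 1.48 to 1.57). In TMD8 cells, in the ITF-B pair of experiment 1, HEY1 changed by 1.55 (other pairs 1.79 to 1.86). In TMD8 cells, in the ITF-A pair of experiment 2, PVRIG changed by -0.17 (other pairs -0.02 to 0.03), SREBF1 changed by 1.85 (other pairs 1.61 to 1.69) and VPREB3 changed by 0.90 (other pairs 0.49 to 0.63). In TMD8 cells, in the ITF-A pair of experiment 1, TNFRSF1A changed by 0.52 (other pairs 0.01 to 0.18). In DoHH2 cells, in the ITF-A pair of experiment 1, BBOX1 changed by -2.62 (other pairs -3.14 to -2.99), CXCR4 changed by -0.081 (other pairs -0.65 to -0.46) and TCF4 changed by 0.45 (other pairs 0.17 to 0.27). In DoHH2 cells, in the ITF-B pair of experiment 3, BCL6 changed by 0.59 (other pairs 0.79 to 0.88) and GINS2 changed by -0.15 (other pairs 0.09 to 0.16). In DoHH2 cells, in the ITF-B pair of experiment 1, CD37 changed by -0.29 (other pairs -0.03 to 0.12) and CDC25A changed by -1.52 (other pairs -1.31 to -1.24). In DoHH2 cells, in the ITF-B pair of experiment 2, HLA-DOB changed by -0.52 (other pairs -0.28 to -0.25), MIR155HG changed by -0.66 (other pairs -0.40 to -0.26) and MT1G changed by 4.01 (other pairs 3.64 to 3.76). In DoHH2 cells, in the ITF-A pair of experiment 2, INCENP changed by -0.15 (other pairs -0.31 to -0.26), IRAK1 changed by -2.48 (other pairs -2.19 to -2.04) and TAP1 changed by -1.02 (other pairs -0.87 to -0.78). In DoHH2 cells, in the ITF-A pair of experiment 3, TLCD3A changed by -1.35 (other pairs -1.75 to -1.60).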

How the results depend on the processing

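Counts were 3184 higher, 2976 lower, 2726 changed in 1 line, 647 opposite and 928 present in 1 line. Within chip 1 alone 2116 genes were higher and 379 opposite, and within chip 2 alone 2114 and 361. ITF-A arrays alone gave 389 opposite and ITF-B arrays alone 376, and each of these settings holds fewer arrays. Of 145 named genes, 7 lost their call on chip 1 and 9 on chip 2, 10 with ITF-A and 5 with ITF-B alone, BTK and CDKN2D on both chips and with ITF-A. With a minimum difference of 1, the counts were 258, 307, 199, 174 and 174. Leaving out each array in turn gave 3057 to 3158, 2863 to 2959, 2669 to 2737, 605 to 647 and 903 to 929, and none of 3480 values of named genes reversed or lost its call. With a replicate block of the 12 pairs, 3183 were higher and 2990 lower, with a block by line and experiment 3188 and 2996, and the only call either changed among named genes was TNFRSF17, which became called. Presence in 1 line was found for 1023 called genes at the 99th percentile and 1073 at a level of 7, where 747 and 428 of the 928 remained in that class. Falls in TMD8 cells of genes present there only, with a difference of at least 1, then numbered 87 and 106, against 69.

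An offset of 16 turned H2BC21 to -0.30 and TNFRSF17 to -0.19, where BCL6 also lost its call (0.13), and chip 1 alone turned H2BC21 to -0.064, and neither reversed gene was called. On the linear scale, in intensity units, CDKN2D turned to 68.4, H1-2 to 4838, H2AJ to 1642, MT1G to 653, SREBF1 to -44.3, TAP1 to 496 and VPREB3 to -31.0, since a larger DMSO level gives a larger linear change for the same fold. There IGLL1, MYC, STAT3, IDI1, PSMB10, STMN3 and TCF3 lost their calls. SREBF1 is also the named gene with another probe called the other way, and of 79 other probes of named genes 50 were called the same way and 28 were not called. Values of dim genes depend on the offset, and 1717 of 17118 probes without a gene name were called but left unread.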

Other observations

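Neuronal genes, of which 13 of 20 were present in neither line, held 6 that were higher and 3 that were lower in TMD8 cells for the difference, with a median of 0.04, and myeloid markers held 4 and 1 of 12. Cholesterol and fatty acid synthesis genes, all 16 present in both lines, had 3 higher and 9 lower, with a median change of 0.18 in TMD8 cells and 0.53 in DoHH2 cells. Of 18 plasma cell and secretory genes, 7 were higher and 7 lower, from -0.98 to 1.82. Of 14 MHC class II genes 3 were higher and 6 lower, and the list's median change was 0.08 in TMD8 cells and 0.31 in DoHH2 cells. Histone deacetylases and sirtuins had 3 higher and 2 lower of 18, close to the share of all genes. By the study the compounds target deacetylases of classes I, IIb and IV, which leaves out the sirtuins and class IIa members of this list.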
